A study of Mus musculus with 12 samples.

Results

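Dendritic cell genes were followed in bulk RNA sequencing of liver and tumor from mice given a T cell-engaging antibody. The set holds 10 of the 52636 genes of the count table: Clec9a, Xcr1, Flt3, Batf3, Zbtb46, Ly75, Itgax, Siglech, Cd209a and Fscn1. They were found by symbol, each matched 1 gene identifier, and 9 were listed as dendritic cell genes. Ly75 was added as a gene chosen by its measured rise in TDB tumor, so its tumor values and its comparisons between tissues are given as a description, without a test. The mice were female FVB/NJ carrying a piece of an MMTV-HER2 transgenic tumor of founder line 5 (Fo5) in the mammary fat pad. In this model the MMTV promoter drives HER2 in mammary epithelium, so the antibody's target is a transgene product, while the host keeps its own immune system. The treated mice received 1 intravenous dose of 5 mg/kg of anti-HER2(4D5-2C11)/CD3, a T cell-dependent bispecific (TDB) that binds HER2 with one arm and the CD3 chains of the T cell receptor with the other. Control mice received the same volume of the vehicle buffer. All mice bore tumors, and treatment began at an average tumor volume of 350 to 500 mm3. Organs were taken 24 h after the dose. The libraries form 4 groups of 3: TDB tumor, vehicle tumor, TDB liver and vehicle liver. The design names 3 mice per treatment for both organs, and the labels do not say which liver and tumor came from 1 mouse.

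Dendritic cells take up antigen and present it to T cells. Conventional type 1 dendritic cells (cDC1) present antigen of dead cells to CD8 T cells and depend on the transcription factors BATF3 and IRF8. Type 2 cells (cDC2) mainly serve CD4 T cells, and plasmacytoid dendritic cells produce type I interferon. All arise from progenitors that carry FLT3, the receptor of the growth factor FLT3 ligand. On maturation, dendritic cells gain CCR7, costimulatory molecules and fascin and move to lymph nodes. Several of the 10 genes are also made by other cells: Itgax by macrophages and natural killer cells, Zbtb46 by endothelium, Flt3 by blood progenitors, Ly75 by B cells and some epithelia, and Fscn1 by endothelium and carcinoma cells.

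Because the members moved to different extents in tumor, the 250 bases before the RefSeq start of each gene (GRCm38.p6) were searched on both strands for 4 short motifs, and all 10 members had an entry. These were the interferon-gamma activated site TTCNNNGAA, a core of the interferon-stimulated response element (GAAA, 2 free bases, GAAA), the AP-1 site TGANTCA, which BATF-family factors share, and the PU.1 core GAGGAA. Shown 5′ to 3′ are Ly75, the member with the highest level per kilobase in TDB tumors, and 3 members with higher levels in TDB than in vehicle tumors that hold a match, with the matched letters in capitals.
Ly75, minus strand, chr2:60383274-60383523: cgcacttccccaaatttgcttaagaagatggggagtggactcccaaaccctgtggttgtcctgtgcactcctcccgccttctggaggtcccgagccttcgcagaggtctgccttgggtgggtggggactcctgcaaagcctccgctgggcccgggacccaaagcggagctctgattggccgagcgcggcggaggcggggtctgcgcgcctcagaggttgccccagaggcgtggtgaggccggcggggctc
Siglech, plus strand, chr7:55767934-55768183: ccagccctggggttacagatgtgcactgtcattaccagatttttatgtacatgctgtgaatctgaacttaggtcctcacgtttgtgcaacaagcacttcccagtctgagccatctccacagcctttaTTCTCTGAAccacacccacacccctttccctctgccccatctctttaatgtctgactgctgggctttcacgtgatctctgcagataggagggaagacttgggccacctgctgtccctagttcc
Batf3, plus strand, chr1:191098164-191098413: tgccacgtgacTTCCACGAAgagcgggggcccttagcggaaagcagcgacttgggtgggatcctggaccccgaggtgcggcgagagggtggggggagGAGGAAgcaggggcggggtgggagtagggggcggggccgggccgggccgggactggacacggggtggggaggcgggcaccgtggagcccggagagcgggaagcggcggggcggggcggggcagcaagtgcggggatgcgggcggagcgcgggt
Itgax, plus strand, chr7:128129300-128129549: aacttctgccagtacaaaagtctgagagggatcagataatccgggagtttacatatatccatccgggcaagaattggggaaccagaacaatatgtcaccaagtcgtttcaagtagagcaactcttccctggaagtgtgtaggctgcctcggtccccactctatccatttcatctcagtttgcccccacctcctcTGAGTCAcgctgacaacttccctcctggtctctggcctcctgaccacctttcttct
TTCNNNGAA was found in Siglech and Batf3, that is in 2 of 10 members, and in 7.02% of 32851 promoters. TGANTCA was found in Itgax and Zbtb46, and in 6.75% of promoters. GAGGAA was found in Batf3 alone among the members, and in 23.3% of promoters. The interferon-stimulated response core was in 0 of the 10 windows, against 2.98% of promoters. Ly75, Clec9a, Xcr1, Flt3, Cd209a and Fscn1 held none of the 4 letter patterns in this window. Ly75 was 66.8% G and C there and Batf3 76.0%, against 35.6% in Clec9a. The windows of Zbtb46 (chr2:181424389-181424638, minus strand) and Batf3 lay wholly inside the genes as GENCODE M21 places them. Those genes span 181387762 to 181459426 for Zbtb46 and 191097847 to 191108945 for Batf3. The matches in these windows are therefore not upstream of the first annotated base.

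The libraries held 18460159 to 29396324 counts. Values are CPM, counts brought to a common library size by the trimmed mean of M values (TMM) over the 12 libraries, and means are given ± SD with n = 3. Libraries of 1 group differed more in liver than in tumor: the biological coefficient of variation that edgeR fitted over all genes was 13.0% in tumor and 32.3% in liver. TDB liver library 3 stood apart. Mitochondrial genes took 2.05% of its counts, against 0.847% to 1.28% in the other 5 liver libraries. Across 16542 genes its departure from the other 2 TDB liver libraries rose with exonic length, with a Spearman coefficient of 0.54 across genes. The coefficient was -0.49 and -0.37 in TDB livers 1 and 2, each against the other libraries of its group, and 0.10, -0.37 and 0.38 in vehicle livers 1, 2 and 3. In the tumor libraries it lay between -0.26 and 0.14. The liver fold changes of the members are therefore given with and without it.

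The members followed that pattern unevenly. Relative to the mean of the other TDB liver libraries, library 3 differed on the log2 scale by 2.15 for Ly75, 1.78 for Flt3 and 1.61 for Xcr1, genes with 6905, 6176 and 4453 exonic bases. The difference was -2.23 for Batf3, with 1597 exonic bases. It was 0.20 for Zbtb46, the longest member with 8508 exonic bases, and 0.25 to 0.77 for Clec9a, Itgax, Siglech, Cd209a and Fscn1. The part of transcript length in these liver values was not tested.

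**Figure D1:**
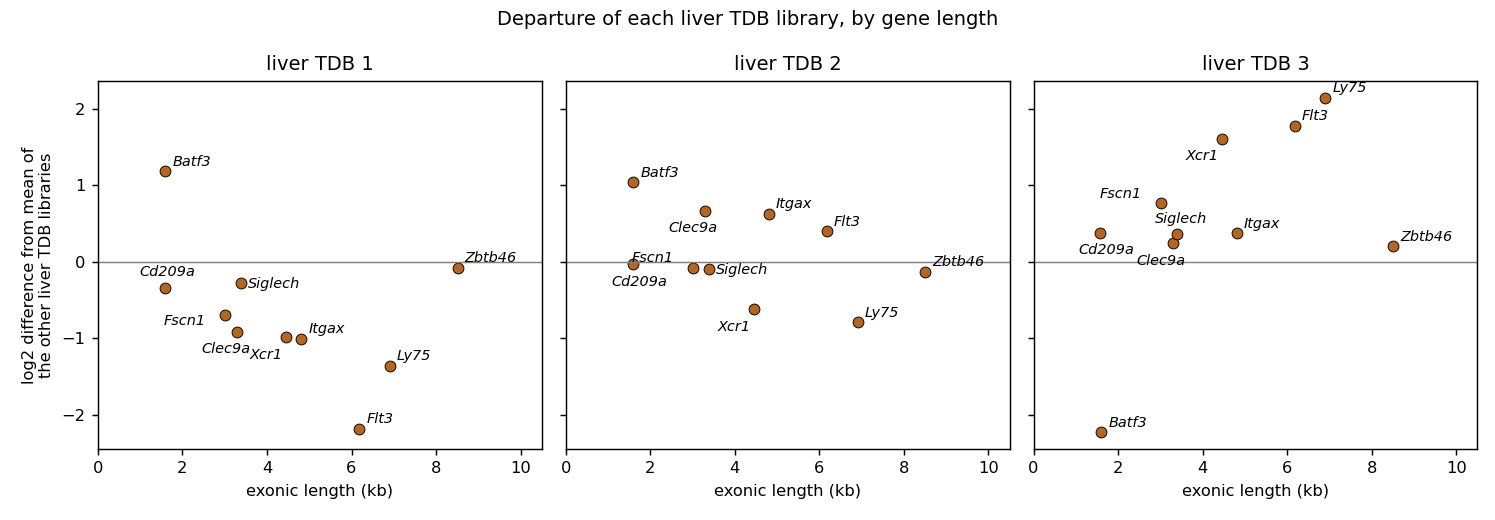
Log2 difference of each TDB liver library from the mean of the other TDB liver libraries (vertical axis) against exonic length in kilobases (horizontal axis), 1 point per gene. In library 3 Ly75, Flt3 and Xcr1 lie above the line by 2.15, 1.78 and 1.61 and Batf3 below it at -2.23, while library 1 has Flt3 and Ly75 lowest.

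In tumor the cDC1 receptors had low but countable levels in TDB mice and few or no counts in vehicle mice. Clec9a, the receptor by which cDC1 bind actin exposed on dead cells (chromosome 6, 129408862 to 129424763), had 51, 35 and 28 counts in TDB tumors and 0 in each vehicle tumor. That is 1.52, 0.80 and 0.86 CPM in TDB tumors. Against a floor of 3 counts over the vehicle group, the level was at least 34.4-fold higher in TDB tumors. Xcr1, the receptor of the chemokine XCL1 (chromosome 9, 123852315 to 123862029), had 0.83, 0.60 and 0.71 CPM in TDB tumors, against 0.06, 0 and 0 CPM in vehicle tumors. These are 77 against 2 counts, a ratio of 34.8 (95% counting interval 9.31 to 293). Neither gene had overlapping groups in tumor. Both passed the adjusted threshold, but they reached the count filter of the fit in 3 TDB tumors and in 0 vehicle tumors. A gene that enters a test through the group where it is high had to differ, so these calls are no support. In bulk tissue, fewer cells of a type and less RNA per cell cannot be told apart.

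Batf3, the transcription factor that cDC1 need to form (chromosome 1, 191097847 to 191108945), showed a smaller tumor change. It measured 2.20, 1.69 and 1.41 CPM in TDB tumors, against 0.58, 1.09 and 0.89 CPM in vehicle tumors. The lowest TDB tumor lay above the highest vehicle tumor. The log2 fold change was 1.13, with a standard error of 0.29 and an adjusted p of 0.0180. This call was lost without TDB tumor 1 (adjusted p = 0.0717), without vehicle tumor 1 (0.0601) and in 1 fit over the 12 libraries (0.339).

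In liver the same 3 genes were measured at higher means in TDB mice, and none passed the adjusted threshold. Clec9a had 2.09, 4.39 and 3.60 CPM in TDB livers, against 0.52, 0.09 and 0.15 CPM in vehicle livers. These are 164 counts against 9, a ratio of 13.7 (95% counting interval 7.03 to 30.4), and the groups did not overlap. Its log2 fold change was 3.75 ± 0.61 (SE) with an adjusted p of 0.0571, and 3.70 ± 0.65 with an adjusted p of 0.0406 without TDB liver 3. It passed in 6 of 16 alternatives, with adjusted p-values between 2.9e-05 and 0.311. In liver too it reached the count filter in 3 TDB libraries and in 0 vehicle libraries, so these p-values are no support. Clec9a shares 184 exonic bases, 5.59% of its own, with Clec1b on the same strand, so reads there cannot be assigned to one gene. Clec1b, a platelet and sinusoidal receptor, had 22.4 ± 5.999 CPM in TDB livers and 17.0 ± 2.61 CPM in vehicle livers. Batf3 had 8.42, 7.86 and 1.70 CPM in TDB livers, against 2.08, 3.18 and 0.77 CPM in vehicle livers, so the groups overlapped through TDB liver 3. Its log2 fold change was 1.61 ± 0.68 (adjusted p = 0.604), and 2.06 ± 0.46 without that library (adjusted p = 0.103). Xcr1 had 0.52, 0.63 and 1.83 CPM in TDB livers, against 0.17, 0.69 and 0.31 CPM in vehicle livers, and its counts were too low to enter the liver fit.

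Flt3, the growth factor receptor of dendritic cell progenitors (chromosome 5, 147330741 to 147400489), was near the counting limit everywhere. It had 22, 11 and 4 counts in TDB tumors, against 1, 2 and 1 in vehicle tumors. The ratio of scaled counts was 8.36 (95% counting interval 3.00 to 32.3), and the gene was below the count filter of the tumor fit. Of the 3 alternatives that tested it in tumor 2 called it higher (adjusted p = 0.00332 to 0.0661 over the 3), with 4 counts in the vehicle group. In liver it had 0.20, 0.74 and 1.44 CPM in TDB mice and 0.09, 0.34 and 0.23 CPM in vehicle mice, with overlapping groups.

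Siglech, a receptor of mouse plasmacytoid dendritic cells (chromosome 7, 55768178 to 55778925), had few counts in vehicle tumors. It measured 1.31, 1.49 and 0.86 CPM in TDB tumors, against 0.06, 0.03 and 0.03 CPM in vehicle tumors. Its counts were 137 in TDB tumors and 4 in vehicle tumors, and its log2 fold change was 4.89 ± 0.46 (SE). It passed the adjusted threshold, but like Clec9a and Xcr1 it reached the count filter in TDB tumors alone, so the call is no support. In liver Siglech had 2.87, 3.13 and 3.86 CPM in TDB mice and 2.34, 1.63 and 1.70 CPM in vehicle mice. The liver groups did not overlap, and the log2 fold change of 0.84 ± 0.31 did not pass (adjusted p = 0.481), nor did 0.71 ± 0.34 without TDB liver 3 (0.559).

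Itgax, which encodes the integrin chain CD11c (chromosome 7, 128129547 to 128150657), was already present in vehicle tumors. It had 27.6, 27.9 and 30.4 CPM in TDB tumors, against 8.14, 5.16 and 8.70 CPM in vehicle tumors. The log2 fold change was 2.05 ± 0.18 (SE, adjusted p = 0.000124), and the groups lay far apart. In liver it had 1.50, 3.25 and 2.88 CPM in TDB mice and 0.95, 1.20 and 0.77 CPM in vehicle mice. That liver difference of 1.42 ± 0.42 on the log2 scale did not pass (adjusted p = 0.331), nor did 1.33 ± 0.47 without TDB liver 3 (0.344).

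Cd209a, a C-type lectin of monocyte-derived dendritic cells (chromosome 8, 3743397 to 3748984), had 26 counts in TDB tumors and 1 in vehicle tumors. The ratio was 23.5 with a 95% counting interval of 3.86 to 964, and the gene stayed below the filter of the tumor fit. The 3 alternatives that tested it in tumor called it higher (adjusted p = 0.00237 to 0.0144), with that 1 vehicle count behind them. In liver it had 0.78, 0.91 and 1.11 CPM in TDB mice and 1.04, 0.43 and 0.62 CPM in vehicle mice, with overlapping groups and a log2 fold change of 0.47 ± 0.45 (adjusted p = 0.828), or 0.33 ± 0.54 without TDB liver 3 (0.908).

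Zbtb46, a transcription factor of conventional dendritic cells (chromosome 2, 181387762 to 181459426), did not follow the cDC1 genes. It had 8.13, 8.40 and 6.51 CPM in TDB tumors and 8.11, 9.35 and 8.17 CPM in vehicle tumors, with overlapping groups. The tumor log2 fold change was -0.07 with a 95% interval of -0.36 to 0.23 (adjusted p = 0.739). Its liver values were 8.16, 7.98 and 9.30 CPM in TDB mice and 6.68, 5.67 and 10.0 CPM in vehicle mice, a log2 fold change of 0.23 ± 0.29 (adjusted p = 0.856), or 0.15 ± 0.30 without TDB liver 3 (0.936).

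Fscn1, the actin-bundling protein fascin of mature dendritic cells (chromosome 5, 142960343 to 142973185), also overlapped between groups in both tissues. It had 11.3, 15.2 and 19.2 CPM in TDB tumors and 19.0, 14.3 and 31.9 CPM in vehicle tumors. The tumor log2 fold change was -0.43 with a 95% interval of -1.27 to 0.42 (adjusted p = 0.410). In liver it had 6.46, 8.60 and 12.7 CPM in TDB mice and 6.07, 4.73 and 10.3 CPM in vehicle mice, a log2 fold change of 0.44 ± 0.39 (adjusted p = 0.824), or 0.14 ± 0.37 without TDB liver 3 (0.953).

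**Figure D2:**
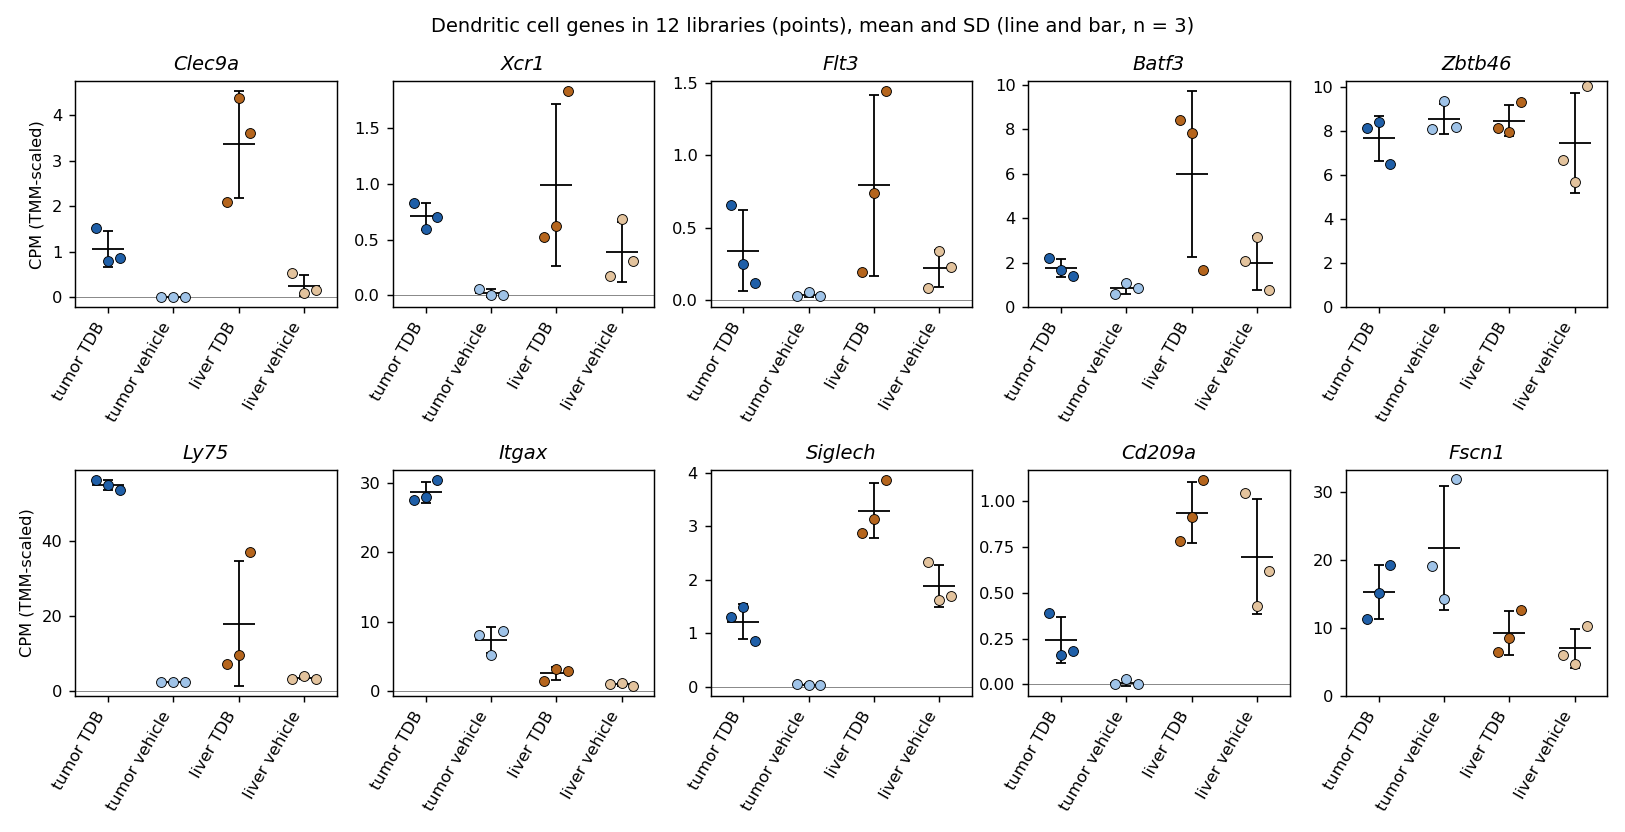
TMM-scaled CPM (vertical axis, linear, a scale of its own per gene) of the 10 genes in each of the 12 libraries, with points for libraries, a line for the mean and a bar for the SD (n = 3). Clec9a lies at 0 in the 3 vehicle tumors, Ly75 lies between 53.6 and 56.3 CPM in TDB tumors, and Zbtb46 and Fscn1 overlap between TDB and vehicle in both tissues.

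Ly75 encodes DEC-205, an endocytic receptor of the mannose receptor family that delivers antigen for presentation (chromosome 2, 60292103 to 60383303). It had 56.3, 55.0 and 53.6 CPM in TDB tumors, against 2.27, 2.52 and 2.34 CPM in vehicle tumors. The log2 fold change that led to its choice was 4.61 ± 0.09 (SE). The TDB tumors differed from each other by less than 3 CPM, with a spread of 55.0 ± 1.38 CPM, against 2.38 ± 0.13 CPM in vehicle tumors. In liver, which the choice did not use, Ly75 had 7.31, 9.51 and 37.1 CPM in TDB mice and 3.21, 3.95 and 3.32 CPM in vehicle mice. The liver groups did not overlap and TDB liver 3 was far above the rest. The liver log2 fold change was 2.41 ± 0.64 (adjusted p = 0.262), and 1.31 ± 0.28 without TDB liver 3 (adjusted p = 0.0876). An antisense gene, Gm13571, overlaps 3.61% of the exonic bases of Ly75 and had 3 counts over all libraries.

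Batf3 and Itgax passed the tumor test with enough counts in both groups, and Zbtb46 and Fscn1 did not pass it. Clec9a, Xcr1 and Siglech entered it through TDB tumors alone, and Flt3 and Cd209a did not enter. The count of 5 of 7 tested members higher in TDB tumors, Ly75 apart, and 0 lower is therefore no support, and nothing is read from it against the 15.8% higher and 13.1% lower among all 15454 genes tested. In liver, edgeR passed 0 of 8 tested members, against 0.513% of 13657 genes higher and 0.022% lower. DESeq2 passed 2 of them (Clec9a and Ly75) and limma-voom 0. At an unadjusted p under 0.05, 5 of 8 members were higher in TDB livers (Clec9a, Batf3, Ly75, Itgax and Siglech), against 5.84% of all genes. Clec9a and Cd209a reached the count filter in all TDB livers but not in all vehicle livers, so this count too is a description and no support.

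**Figure D3:**
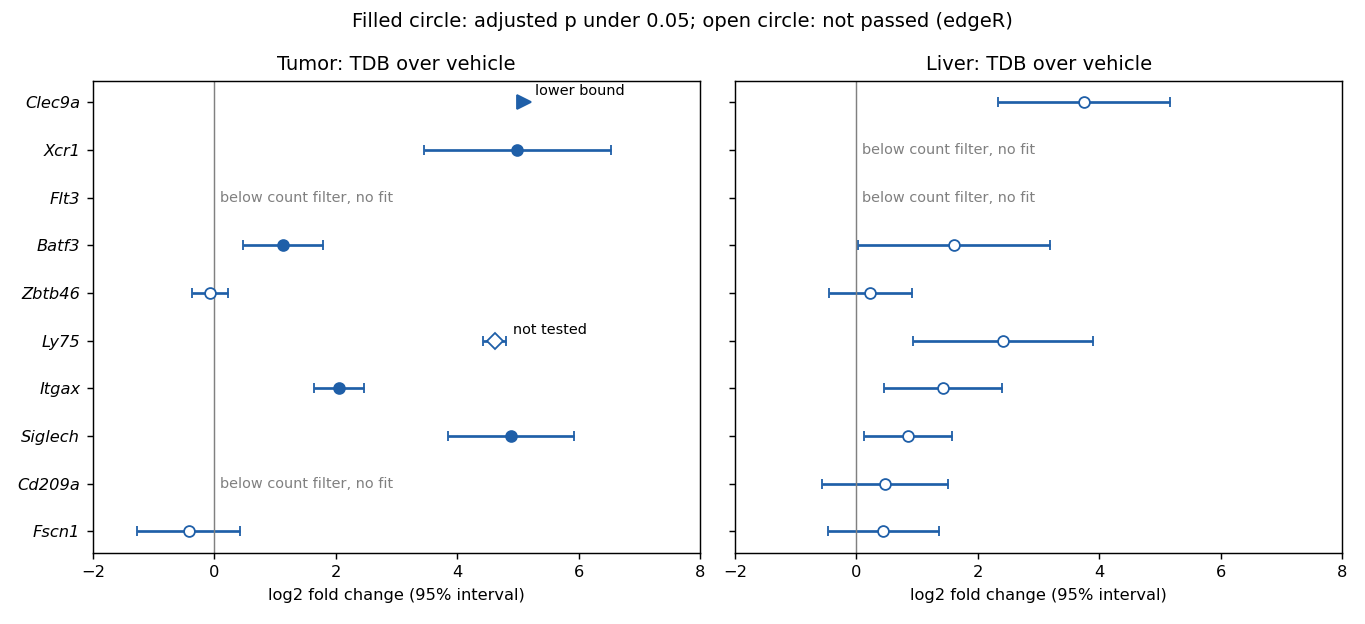
Log2 fold change of TDB over vehicle (horizontal axis) with its 95% interval for the 10 genes in tumor (left) and liver (right), from edgeR fits of 6 libraries each. Filled circles passed an adjusted p of 0.05 (in tumor Xcr1 and Siglech with 2 and 4 vehicle counts), open circles did not, the diamond is Ly75 in tumor without a test, and the triangle is the lower bound of Clec9a in tumor, where vehicle mice had 0 counts; Itgax passes in tumor at 2.05 and does not in liver at 1.42.

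The difference between the tumor and the liver effect was tested in 1 fit over the 12 libraries for the 9 members without Ly75. It passed for Siglech, with an effect larger in tumor by 3.96 ± 0.54 on the log2 scale (SE, adjusted p = 0.00195), with 4 counts in vehicle tumors. It did not pass in either limma-trend fit on FPKM. This is 1 of 9 members, against 1.83% of 16557 genes with a larger effect in tumor and 0.658% with a smaller one. The median of all genes in this contrast was -0.12. Clec9a had a fitted difference of 3.97 ± 1.41 (adjusted p = 0.244), a value that depends on the prior count because vehicle tumors had 0, and Cd209a of 3.59 ± 0.98 (0.0969). Xcr1 had 3.48 ± 1.17 (0.192), and 4.33 ± 1.02 without TDB liver 3 (0.0344). Its counts were too low for the liver fit and it entered through TDB tumors, so the latter call is no support. Itgax had 0.57 with a 95% interval of -0.38 to 1.53, and Batf3 -0.54 with an interval of -2.30 to 1.21. For Itgax the difference passed in 2 of 22 alternatives, the limma-trend fits on FPKM, at 0.73 with FPKM + 1 (adjusted p = 0.000376) and 1.19 with FPKM + 0.1 (0.0238). The intervals of Flt3, Zbtb46 and Fscn1 also include 0. For Ly75 the tumor effect exceeded the liver effect by 2.17, and by 3.33 without TDB liver 3.

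Levels also differed between the tissues. In TDB mice, tumor was higher than liver for 1 of 9 members, Itgax, by 3.48 ± 0.29 on the log2 scale (adjusted p = 5.06e-07). It was lower for 4, namely Clec9a by -1.67, Batf3 by -1.76, Siglech by -1.42 and Cd209a by -1.94, with adjusted p-values of 0.000559 to 0.0111. Of all genes, 36.6% were higher in tumor and 35.5% lower. In vehicle mice 2 members were higher in tumor, Itgax by 2.91 and Fscn1 by 1.63, against 39.5% of all genes. Lower in vehicle tumor were 4 members, against 36.1% of all genes: Clec9a with 0 counts in tumor and 9 in liver, Siglech with 4 in tumor and 68 in liver, Cd209a with 1 in tumor and 25 in liver, and Xcr1 with 2 in tumor and 14 in liver. These calls depend on the scaling between organs. With library totals in place of TMM, the median of all genes moved up by 1.13 in TDB mice and by 1.33 in vehicle mice. Under totals 0 of the 4 lower calls in TDB mice were left by edgeR, and Zbtb46 (0.98, adjusted p = 0.00186) and Fscn1 (1.83, 0.00115) became higher. In vehicle mice Clec9a, Siglech, Cd209a and Xcr1 stayed lower under totals, and Zbtb46 also became higher (1.52, adjusted p = 7.58e-05).

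Compared per kilobase of exon, the order of the members differed between groups. In TDB tumors Ly75 led with 7.96 ± 0.20 CPM per kb, above Itgax with 5.96 ± 0.32, Fscn1 with 5.07 ± 1.31 and Batf3 with 1.11 ± 0.25. Itgax and Fscn1 did not differ beyond their spread, nor did Batf3 and Zbtb46 with 0.90 ± 0.12. Siglech with 0.36 ± 0.10 and Clec9a with 0.32 ± 0.12 were close, and Xcr1, Cd209a and Flt3 were at 0.16 CPM per kb or less. In vehicle tumors Fscn1 led with 7.21 ± 3.02 CPM per kb, above Itgax with 1.53 ± 0.40 and Zbtb46 with 1.00 ± 0.08, while Ly75 had rank 5 with 0.34 ± 0.02. In TDB livers Batf3 (3.75 ± 2.33 CPM per kb), Fscn1 (3.07 ± 1.05) and Ly75 (2.60 ± 2.41) overlapped, and Clec9a (1.02 ± 0.35) stood with Zbtb46 (1.00 ± 0.08) and Siglech (0.97 ± 0.15). In vehicle livers Fscn1 led with 2.33 ± 0.96 CPM per kb and Flt3 was last with 0.04 ± 0.02.

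Markers of other cells moved in the same libraries. All 6 pan-leukocyte markers rose in TDB tumors, and their summed level was 170 to 174 CPM in TDB tumors and 40.1 to 67.7 CPM in vehicle tumors. Ptprc, which encodes the leukocyte antigen CD45, had a tumor log2 fold change of 2.55 ± 0.17 (adjusted p = 3.16e-05), larger than that of Itgax or Batf3 and smaller than the fitted ones of Xcr1 and Siglech. Monocyte and macrophage markers rose for 9 of 14, with summed levels of 1143 to 1351 CPM in TDB tumors and 376 to 502 CPM in vehicle tumors. Cd14 had the most counts of these genes in tumor, 77333 in TDB tumors and 12967 in vehicle tumors. It had only 335 counts in TDB livers and 342 in vehicle livers. The tumor sums are therefore not read as a level of macrophages. T cell markers rose for 9 of 10, with sums of 11.1 to 18.5 CPM in TDB tumors and 2.00 to 3.84 CPM in vehicle tumors, where Cd3e was at 0. Natural killer markers rose for all 4 tested, with sums of 9.03 to 13.7 CPM in TDB tumors and 0.15 to 0.31 CPM in vehicle tumors, and Klra8 was at 0 in the vehicle tumors. Vehicle tumors held 9 counts of Ncr1, 2 of Klrb1c, 8 of Klrk1 and 1 of Eomes, so all 4 entered the fit through TDB tumors alone, as did 8 of the 10 T cell markers, and these counts of calls are no support. Neutrophil markers rose for 3 of 4, with sums of 24.5 to 48.4 CPM in TDB tumors and 3.13 to 7.70 CPM in vehicle tumors. S100a8 had the most counts of these genes in tumor, 2840 in TDB tumors and 332 in vehicle tumors, against 191 and 76 of S100a9. In TDB livers S100a8 had 605 counts and S100a9 1024. The neutrophil sums in tumor are therefore not read as a level of neutrophils. Of the tested markers, 2 of 4 neutrophil and 1 of 14 monocyte and macrophage genes reached the count filter only with TDB tumors. Of all genes tested in tumor 15.8% were higher, and the counts of marker calls are descriptions. The part of these other cells in the members' values was not tested.

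B cell markers had too few counts for the tumor fit, with sums of 1.08 to 1.43 CPM in TDB tumors and 0.44 to 0.76 CPM in vehicle tumors. Endothelial markers rose for 0 of 6 and fell for 2 in TDB tumors, and mammary epithelial markers rose for 0 of 5 and fell for 1. Of all genes tested in tumor 15.8% were higher and 13.1% lower. Hematopoietic progenitor markers passed for 0 of 3 by edgeR (1 at an unadjusted p under 0.05), with sums of 514 to 579 CPM in TDB tumors and 597 to 657 CPM in vehicle tumors. Kit made up nearly all of these sums, with a mean of 519 CPM in TDB tumors and 613 CPM in vehicle tumors. In TDB livers Kit had 7.23 CPM and in vehicle livers 5.86 CPM. The tumor sums are therefore not read as a level of blood progenitors. The tissue labels held, with hepatocyte sums of 162058 CPM or more in each liver and 25.3 CPM or less in each tumor, and epithelial sums of 13597 CPM or more in each tumor. Of the Kupffer cell markers 1 was tested in tumor, Timd4, with 243 counts in TDB tumors and 7 in vehicle tumors, while Clec4f was at 0 in tumors. Hepatocyte markers passed for 0 of 3 tested in tumor, also at an unadjusted p under 0.05. In liver, 1 of 10 T cell markers passed, Cd8a, and 0 of the 6 pan-leukocyte markers. Cd8a had a log2 fold change of 2.98 (adjusted p = 0.0426), with 206 counts in TDB livers and 20 in vehicle livers. It reached the count filter in 3 TDB livers and in 1 vehicle liver, so the call is no support. Of the T cell markers, 3 of 10 reached the filter only with TDB livers. At an unadjusted p under 0.05, 4 of the 6 pan-leukocyte and 8 of the 10 T cell markers were higher, against 5.84% of all genes. Pan-leukocyte sums were 137 to 191 CPM in TDB livers and 89.1 to 100.2 CPM in vehicle livers, and T cell sums were 42.4 to 51.1 CPM in TDB livers and 19.3 to 22.9 CPM in vehicle livers. The natural killer, B cell, macrophage, Kupffer, neutrophil, endothelial, epithelial, hepatocyte and progenitor lists had 0 calls in liver by edgeR, with 10 of their genes at an unadjusted p under 0.05. Of these, 1 of 2 tested natural killer, 4 of 14 macrophage and 1 of 6 epithelial genes were higher. The others were 2 of 4 Kupffer genes, 1 of them higher, and 2 of 6 hepatocyte genes, 1 of them higher. These counts are descriptions beside the 5.84% of all genes higher.

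Set beside Ptprc, the members separated. Per 100 Ptprc counts, TDB tumors held 2.16 ± 0.65 counts of Clec9a against none in vehicle tumors, and 2.53 ± 0.73 of Siglech against 0.48 ± 0.21 in vehicle tumors. Itgax had 59.3 ± 5.91 counts per 100 in TDB tumors and 83.5 ± 7.72 in vehicle tumors, and Batf3 had 3.63 ± 0.62 in TDB tumors and 10.4 ± 5.37 in vehicle tumors. Zbtb46 had 15.9 ± 2.40 per 100 in TDB tumors and 103 ± 34.9 in vehicle tumors. Ly75 had 114 ± 6.68 per 100 in TDB tumors and 28.5 ± 8.74 in vehicle tumors. Flt3 had 0.69 ± 0.51 per 100 in TDB tumors and 0.51 ± 0.36 in vehicle tumors, within the spread. Xcr1 had 1.46 ± 0.14 in TDB tumors and 0.23 ± 0.40 in vehicle tumors, and Cd209a 0.49 ± 0.21 and 0.15 ± 0.27. Fscn1 had 31.8 ± 9.47 per 100 in TDB tumors and 241 ± 43.5 in vehicle tumors. In liver Clec9a had 12.6 ± 5.64 per 100 Ptprc counts in TDB mice and 1.81 ± 1.82 in vehicle mice, while Siglech had 12.9 ± 6.56 in TDB mice and 12.9 ± 4.05 in vehicle mice. Ptprc itself had 14.5, 25.6 and 57.2 CPM in TDB livers 1, 2 and 3, against 13.4, 15.9 and 15.7 CPM in vehicle livers. The liver ratios therefore depend on TDB liver 3.

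Other dendritic cell genes were read from 10 lists. Some of them reached the count filter in all TDB tumors but not in all vehicle tumors: 2 of 9 tested cDC1 genes, 5 of 9 cDC2, 2 of 8 plasmacytoid and 3 of 13 mature dendritic cell genes, 3 of 8 growth factors and attractants, 1 of 9 receptors, 2 of 10 transcription factors and 1 of 4 beta2 integrins. The counts of calls that follow are descriptions. In tumor, 5 of 9 tested cDC1 genes were higher in TDB mice and 1 was lower, against 15.8% and 13.1% of all genes. Irf8, the factor needed by cDC1 and plasmacytoid cells, had 51.2, 64.5 and 55.1 CPM in TDB tumors, against 6.45, 5.34 and 7.46 CPM in vehicle tumors, and its log2 fold change was 3.23 ± 0.14. Naaa, an amidase enriched in cDC1, changed by 2.11 ± 0.11, and Tlr3, the sensor of double-stranded RNA, by 1.69 ± 0.07. The lower one, Snx22, is a sorting nexin with a log2 fold change of -1.31 ± 0.27; it was named after its value was seen. Of the cDC2 genes 4 of 9 were higher and 1 lower. Irf4, a factor of cDC2 and of activated lymphocytes, had 346 counts in TDB tumors and 5 in vehicle tumors, and the lectin Clec10a changed by 3.71 ± 0.41 on the log2 scale. The lower one, Esam at -0.65 ± 0.14, is also an endothelial adhesion molecule and was likewise named after its value was seen.

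Plasmacytoid genes were higher for 7 of 8 tested in TDB tumors. They include Ccr9, a chemokine receptor with 96 counts in TDB tumors and 2 in vehicle tumors, Spib, a transcription factor with 71 counts in TDB tumors and 6 in vehicle tumors, and the interferon-induced Bst2 (log2 fold change 3.49). Mature dendritic cell genes were higher for 9 of 13 and lower for 0. Ccr7, the lymph node homing receptor, had 1.13, 0.64 and 0.61 CPM in TDB tumors, against 0.09, 0.03 and 0 CPM in vehicle tumors. Ccl22, a chemokine for regulatory and helper T cells, had 189 counts in TDB tumors and 3 in vehicle tumors. The PD-1 ligand gene Cd274 had 99.0 ± 17.5 CPM in TDB tumors and 1.63 ± 0.90 CPM in vehicle tumors, and Pdcd1lg2 had 975 counts in TDB tumors and 0 in vehicle tumors, at least 294-fold higher in TDB tumors. Both ligands are also made by macrophages and tumor cells.

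Among the factors that feed or attract dendritic cells, 6 of 8 tested were higher in TDB tumors and 0 lower. Flt3l, the ligand of FLT3, had 1.55, 1.88 and 1.97 CPM in TDB tumors, against 0.65, 0.58 and 0.47 CPM in vehicle tumors, a log2 fold change of 1.75 ± 0.24. Xcl1, the ligand of XCR1 made by T and natural killer cells, had 3.51, 3.75 and 2.92 CPM in TDB tumors, against 0.12, 0.09 and 0.03 CPM in vehicle tumors. Ccl5 changed by 5.39 ± 0.23 and Ccl4 by 3.40 ± 0.47 on the log2 scale, both chemokines that attract T cells and monocytes. Csf2, which encodes GM-CSF, had 6 counts in TDB tumors and 0 in vehicle tumors and was not tested. Receptors were higher for 7 of 9, among them Csf2rb, the shared chain of the GM-CSF receptor (3.01 ± 0.32), and the monocyte receptor Ccr2 (2.96 ± 0.18). Cx3cr1, the fractalkine receptor, was the 1 lower receptor, at -1.57 ± 0.16, and was named after its value was seen.

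Transcription factors of dendritic cells were higher for 10 of 10 tested in TDB tumors. Batf2, an interferon-inducible relative of Batf3, had 71.5 ± 3.48 CPM in TDB tumors and 0.28 ± 0.12 CPM in vehicle tumors. Spi1, which encodes PU.1, changed by 1.82 ± 0.19 on the log2 scale. All 4 of the other beta2 integrin genes were higher, with Itgb2, the beta chain that pairs with CD11c, at 3.17 ± 0.21. Of the 3 other mannose receptor family genes 0 passed in tumor by edgeR, while 2 were higher at an unadjusted p under 0.05, as were 20.5% of all genes. Of the other Cd209 family genes, Cd209b, Cd209c, Cd209d, Cd209e, Cd209f and Cd209g were found in the count table, and none of them had enough counts in tumor to be tested.

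In liver few of these genes passed, against 0.513% of all genes higher. They were Irf8 (log2 fold change 1.62 ± 0.22, adjusted p = 0.0343), Cd274 (4.12 ± 0.56, 0.0343) and Bcl6, a transcriptional repressor of germinal centre B and follicular helper T cells (2.64 ± 0.38, 0.0405). Irf8 had 44.4, 59.2 and 51.1 CPM in TDB livers, against 16.0, 19.2 and 16.7 CPM in vehicle livers, and kept its call without TDB liver 3 (1.62 ± 0.21, adjusted p = 0.0109). Ccr7 had 2.87, 2.73 and 2.62 CPM in TDB livers and 3.12, 2.49 and 2.39 CPM in vehicle livers, with overlapping groups. Flt3l and Xcl1 did not pass in liver, with log2 fold changes of 0.13 ± 0.49 and 1.06 ± 0.52. Of the cDC1 genes 1 of 7 tested passed in liver, and 5 were higher at an unadjusted p under 0.05, against 5.84% of all genes. Mature dendritic cell genes passed for 1 of 12 (2 unadjusted, 1 of them higher) and transcription factors for 1 of 9 (3 higher unadjusted). These counts are descriptions, as 1 of those cDC1 and 2 of those mature genes reached the count filter only with TDB livers. In the cDC2 and the growth factor lists 0 genes passed in liver, also at an unadjusted p under 0.05. Of the plasmacytoid genes 0 of 7 passed in liver by edgeR (3 higher unadjusted) and of the receptors 0 of 9 (3 higher unadjusted). The mannose receptor family had 0 of 3 (1 higher unadjusted) and the other beta2 integrins 0 of 3 (2 higher unadjusted). Of the other Cd209 family genes 0 of 3 passed. At an unadjusted p under 0.05, 2 of them differed and 0 were higher in TDB livers. Cd209g had 8 counts in TDB livers and 61 in vehicle livers, and reached the count filter in vehicle livers alone. These counts too are descriptions.

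**Figure D4:**
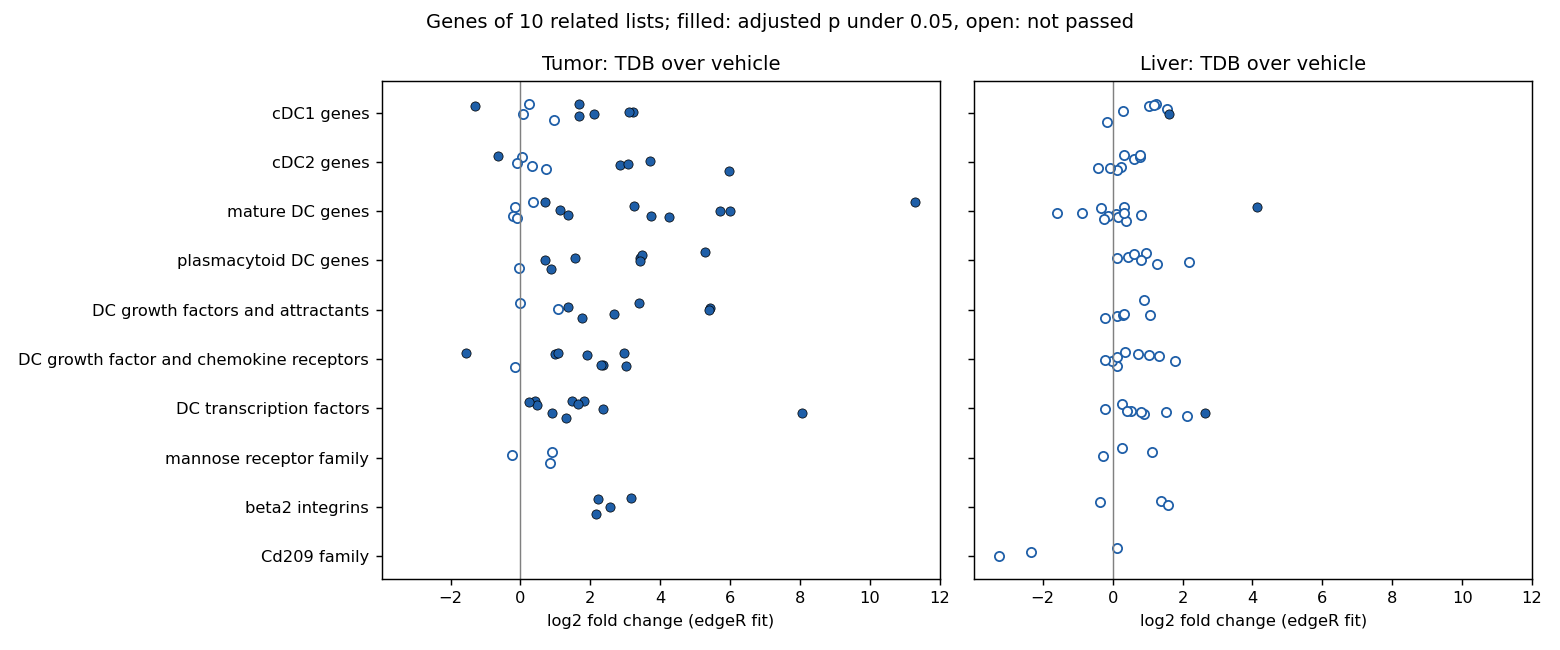
Log2 fold change of TDB over vehicle (horizontal axis) for each gene tested in the 10 lists of related genes (rows), in tumor (left) and liver (right), from the edgeR fits. Filled points passed an adjusted p of 0.05, in tumor for example 10 of 10 dendritic cell transcription factors, in liver Irf8, Cd274 and Bcl6; the rightmost tumor point is Pdcd1lg2, whose fitted value has no vehicle count behind it.

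The genes whose level ran most like that of Ly75 over the 12 libraries, by Pearson's r of log2 CPM among 16547 genes, were Ifih1 (0.99), Gbp7 (0.98), Nlrc5 (0.98), Parp14 (0.98) and Trim12c (0.97). Over the 6 tumor libraries they included Tnip3, Gm44075, Stat2 and Irf1, each above 0.99. For Clec9a they were Tifab (0.98), Cd8a (0.97), Hcls1 (0.97), Lcp2 (0.97) and Rmdn3 (0.96) over 12 libraries, and Cxcr5, Camk1d, Foxp3, Fgr and Naaa over the 6 tumors. The tumor libraries fall into 2 clusters by treatment, so these coefficients mostly restate the difference between TDB and vehicle. Between Clec9a and Ly75 themselves r was 0.71 over the 12 libraries, and 0.95 between Siglech and Cd209a.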

How the data were processed

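Total RNA of dissociated liver and tumor was sequenced in 12 libraries. Whole-number read counts per gene were deposited by the authors with FPKM values beside them. GSNAP, limma and GRCm38 are named in the submitters' processing notes, without role or version, and the strand setting of the counting is not given in the sources used here. The FPKM values deposited by the authors matched the span of the gene rather than its exons: for 84.3% of 10358 genes checked, the length behind them was within 1% of the genomic span. Symbols and exon lengths came from GENCODE M21, which held 52489 of the 52636 identifiers. The other 147 took at most 0.00643% of a library's counts.

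The main test was the quasi-likelihood F test of edgeR 4.0.16 (R 4.3.3) with TMM factors and Benjamini-Hochberg adjustment over all genes tested, at a threshold of 0.05. Genes entered after filterByExpr, set to at least 10 counts per library and 15 in total. TDB and vehicle were compared in each tissue over its 6 libraries. The difference of the effects and the comparisons of tissues came from 1 fit over the 12 libraries. All adjusted p-values are from edgeR unless another tool is named. Alternatives were DESeq2 1.42.0, limma-voom and limma-trend on log2(FPKM + 1) and log2(FPKM + 0.1) with limma 3.58.1, other scaling and filters, a replicate block and leaving out each library; scaling by library totals was added after the data were seen. Counting intervals are exact 95% binomial intervals, and floors are 3 counts over a group; both cover counting error only.

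The 10 genes, 10 related lists and 11 marker lists were chosen with earlier results of these data known. All members are named, and from each list at most 4 genes per tissue past the threshold, plus Flt3l, Csf2, Xcl1, Irf8, Ccr7 and Ptprc. The named genes are not in each case those with the largest changes, and some others are named for their counts. Of 174 listed symbols 3 had no unique identifier and were left out. The fits were tested on simulated data. No 2 libraries agreed within sampling noise. One gene that the likeness rule selects is not reported here.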

Additional observations from a re-analysis of the deposited data

Results flagged for a closer look

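For the genes below, the TDB effect in tumor and the TDB effect in liver differed by an interaction test in the edgeR fit over the 12 libraries. Among the 10 dendritic cell genes this was Siglech, by 3.96 ± 0.54 on the log2 scale (SE, adjusted p = 0.00195), larger in tumor. It passed in all alternatives except the limma-trend fits on FPKM.

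Among the related genes the effect was larger in tumor for Batf2 by 5.88 ± 0.46 (adjusted p = 7.32e-05), Ccl22 by 5.995 ± 0.84 (0.00287) and Ccl5 by 5.55 ± 0.51 (0.000159). It was larger for Irf4 by 5.29 ± 0.91 (0.00860), Ccr9 by 4.54 ± 0.86 (0.0143) and Xcl1 by 4.28 ± 0.70 (0.00662). It was also larger for Ccr7 by 4.09 ± 0.68 (0.00697), Clec10a by 2.87 ± 0.56 (0.0178) and Spib by 2.54 ± 0.48 (0.0143). The difference was 2.49 ± 0.49 for Bst2 (0.0179), 1.93 ± 0.42 for Csf2rb (0.0317) and 1.57 ± 0.25 for Irf8 (0.00639). Bcl6 had a smaller effect in tumor than in liver, by -2.19 ± 0.40 (0.0124). Vehicle tumors had 2 counts of Ccr9, 3 of Ccl22, 4 of Siglech and of Ccr7, 5 of Irf4, 6 of Spib and 8 of Xcl1, so the fitted sizes for these genes depend on the prior count. Ccl22 had 15 counts in TDB livers and 15 in vehicle livers, too few for the liver fit. It entered through TDB tumors alone, with 189 counts, so its call is no support. Not every passing gene is named: the mature list had 5 of 14 tested, against 1.83% of all genes. Markers of other cells also had a larger effect in tumor, for 3 of 4 natural killer, 4 of 10 T cell and 2 of 14 monocyte and macrophage genes. Neutrophil markers passed for 0 of 5 and endothelial ones for 0 of 6. These counts are descriptions.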

How the results depend on the processing

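Of the 10 genes, 0 passed in liver by edgeR, against 1 with no filter, 2 with DESeq2, 2 in 1 fit over 12 libraries and 3 with the replicate block; leaving out 1 library gave 0 to 1. In tumor 5 were higher, against 2 with a minimum count of 30. The interaction was called for 1, against 2 with limma-voom and 1 to 2 without 1 library; both FPKM fits lose Siglech and call Itgax. Flt3 and Cd209a, not tested in tumor, were called there in 2 of 3 and 3 of 3 alternatives that tested them. In TDB mice 1 gene was higher in tumor than in liver, against 2 with upper quartile factors, 3 with library totals and 2 with the block (1 to 2 without 1 library); 4 were lower, against 0 with totals. In vehicle mice 4 were lower, against 2 with a minimum count of 30 and 2 in both FPKM fits. Directions reversed in the interaction for Clec9a (-0.15 with FPKM + 1, -0.64 with FPKM + 0.1) and Flt3 (-0.00486 and -0.0417), and with totals for Xcr1 (0.62), Zbtb46 (0.98) and Flt3l (0.62) in TDB mice and Batf3 (0.12) and Ptprc (0.56) in vehicle mice. Without 1 library, Flt3l in liver ranged from -0.25 to 0.48, Zbtb46 in tumor from -0.13 to 0.0332, and Xcr1 between TDB tissues from -0.77 to 0.31. The cause was not tested. Equal library numbers were not used to pair samples in the main fits. Of 12 same-number pairs, 3 correlated above 0.1 (-0.0476 to 0.409), all of them TDB against vehicle, which are different mice. Same-number pairs between tissues lay between -0.0341 and 0.0902. With 3 libraries per group, these values cannot settle whether liver and tumor of 1 number share a mouse. Over all genes, 70 were higher in liver, against 25 with FPKM + 1, 291 with the block, 14 without vehicle liver 2 and 151 without TDB liver 3; 2437 were higher in tumor, against 1068 in 1 fit over 12 libraries, and 2019 lower, against 627 in that fit, 3994 with totals and 1145 without TDB tumor 2. Flt3, Cd209a and Xcr1 had too few counts for a firm statement.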
